A study of Sus scrofa with 35 samples.

Results

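The nuclear-encoded NDUF genes, most of which code for subunits of respiratory complex I, were followed in back muscle (longissimus dorsi) of pigs, all castrated males, under thermoneutral (TN) or heat stress (HS) conditions. Membership rested on the gene name: a gene was included where the gene name of a probe began with NDUFA, NDUFB, NDUFC, NDUFS or NDUFV and a digit, in capitals or not, with the NDUFAF assembly factors left out. This gave 34 genes measured by 65 probes, among 29200 gene names with a probe kept for testing. Each gene was represented by its brightest probe, and all 34 of these were kept and lay well above background on all 35 arrays. NDUFA5, NDUFB4, NDUFB10 and NDUFS7 carried no probe with that gene name and were not analysed here.

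The study compared 3 genetic groups: Creole, Large White and F1, the cross of these breeds. Each array carried the RNA of 1 pig, with 6 pigs per genetic group and temperature except in F1 HS, which had 5. The TN pigs were kept at 24 °C. For the HS pigs the sample labels give 30 °C, whereas the growth protocol gives 32 °C for 5 days, and this disagreement was not settled. Slaughter of the TN pigs came ahead of the warm period and that of the HS pigs at its end. Temperature, slaughter day and age at slaughter therefore cannot be told apart. The paper also reports that feed intake fell under HS, and no TN group was fed to match. Heat and lower feed intake thus cannot be told apart either. Per the methods each genetic group came from a few litters, which the labels do not give, so that littermates were treated as independent animals. The same holds for pigs housed in the same pen.

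Complex I, the NADH:ubiquinone oxidoreductase, is the entry point for electrons from NADH into the mitochondrial respiratory chain, and it pumps protons across the inner membrane. It is L-shaped. The peripheral arm, in the matrix, holds the N module, where NADH is oxidised, and the Q module, where ubiquinone is reduced. The membrane arm, with a proximal and a distal part, moves the protons. Its core subunits are conserved from bacteria, some being encoded by mitochondrial DNA and the rest in the nucleus, and the accessory subunits surround them. Skeletal muscle uses the complex for the ATP of sustained work, and oxidative fibres hold more of it than glycolytic ones. The NDUFA4 protein, named with the family, is today counted with complex IV, and its relative NDUFA4L2 is known as a hypoxia-responsive gene. This pair has its own paragraph below, but both genes enter the counts and medians given for the whole family.

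What the arrays measured was the binding of labelled RNA to synthetic 60-base probes. The probes of the genes that carry the results are shown here 5′ to 3′, and where in the transcript each lies was not analysed. The first lines show the brightest probe of the catalytic subunits NDUFV1 and NDUFS1, which had the largest falls in the main model.
NDUFV1: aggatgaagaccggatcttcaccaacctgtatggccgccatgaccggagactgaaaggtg
NDUFS1: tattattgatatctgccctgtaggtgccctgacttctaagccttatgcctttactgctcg
The next lines show probes of the genes that differed between breeds, NDUFC1 (its dimmer probe) and NDUFA9, and of NDUFB9, whose heat values differed most among the genetic groups.
NDUFC1: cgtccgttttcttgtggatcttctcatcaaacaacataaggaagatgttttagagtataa
NDUFA9: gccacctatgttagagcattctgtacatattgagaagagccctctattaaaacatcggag
NDUFB9, the third brightest probe: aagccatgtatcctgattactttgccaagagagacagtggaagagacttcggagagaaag
The last pair shows bases 6 to 35 of both NDUFB11 probes, which gave different breed values. Over all 60 bases they differ by 2 substitutions, T20C and C55A, counted from 1 at the 5′ end with the base of the brightest probe first, and the capital letter marks position 20.
NDUFB11, the brightest probe: tgccattctgccctTctctcagagcaccta
NDUFB11, the dimmer probe: tgccattctgccctCctctcagagcaccta

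Under HS, 22 of the 34 NDUF genes fell and none rose. All values below are log2 intensities after quantile normalisation, differences are HS minus TN with the standard error (SE), and a gene was called at an adjusted p under 0.05 in limma, with temperature and genetic group in the model and Benjamini-Hochberg adjustment over all 41517 probes kept. Among all probes 8.3% were called lower and 7.73% higher, and among gene names with 1 probe each 7.85% were called lower, against 64.7% of the NDUF genes. The differences ran from -0.40 to 0.042 with a median of -0.21, beside a median of -0.02 over all probes. A value below 0 was seen in 33 of the 34 genes and in 56.1% of all probes. The mean of the 34 genes on an array was 13.57 ± 0.13 in TN (SD, n = 18, from 13.26 to 13.78) and 13.36 ± 0.17 in HS (SD, n = 17, from 12.995 to 13.60), so the groups overlapped. In bulk tissue, a lower level per muscle fibre and a smaller share of muscle fibre RNA in the sample cannot be told apart.

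**Figure D1:**
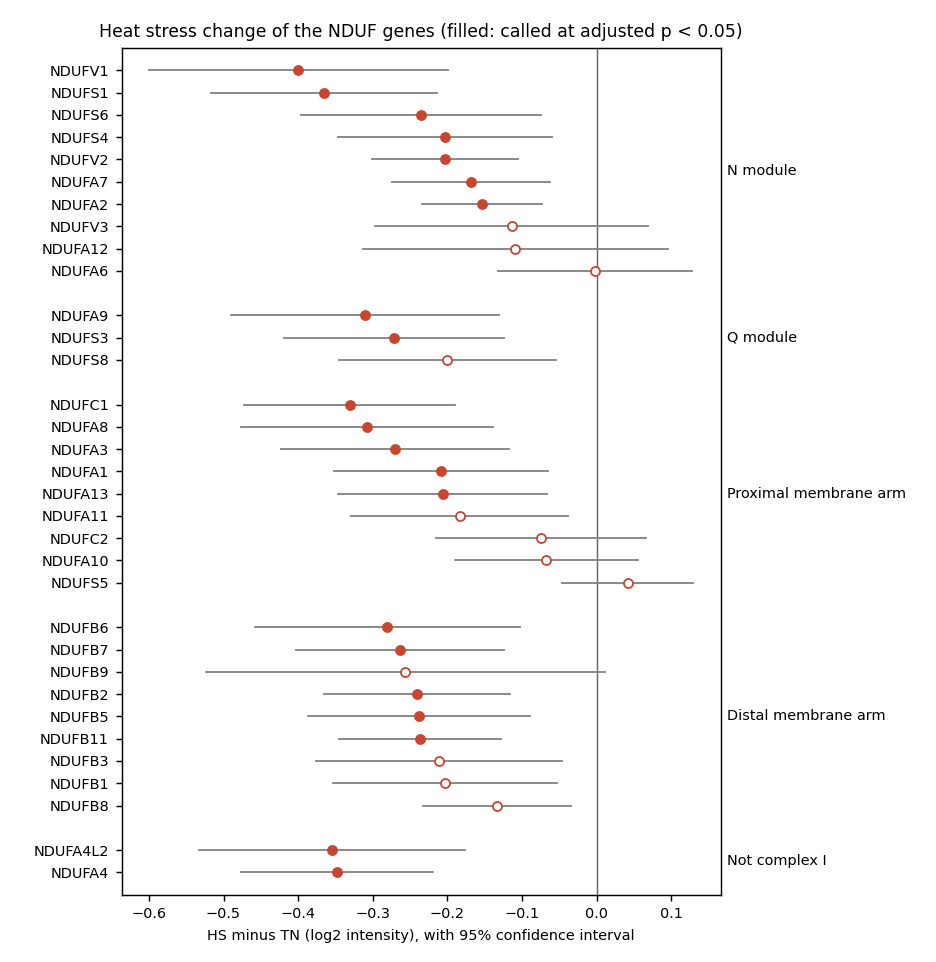
Difference between HS and TN for the NDUF genes (x axis, log2 intensity; points are estimates of the additive limma model, lines 95% confidence intervals, filled points genes called at adjusted p under 0.05), ordered within the modules of complex I. Points lie left of 0 from -0.40 for NDUFV1 on, and NDUFS5 alone lies right of it at 0.042.

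Markers of other cells and the brightness of the arrays moved with temperature too, and the number of calls depended on them. Of 19 leukocyte markers 17 were measured, and 8 were called higher in HS, among them LAPTM5 (1.26) and CSF1R (0.93). The median difference of the 17 was 0.70, and PTPRC, the gene of the common leukocyte antigen, stood at -0.017 and was not called. Their summed level, as log2, ran from 13.11 to 15.99 in TN and from 14.65 to 16.50 in HS. The 75th percentile of all probes before normalisation, a measure of array brightness, was 9.05 ± 0.17 in TN (SD, n = 18) and 9.24 ± 0.24 in HS (SD, n = 17). With the leukocyte mean as a covariate 2 NDUF genes were called lower, NDUFA4 and NDUFB11, and the median difference was -0.11, with 30 of 34 genes below 0 and 2.53% of all probes called lower. With brightness as a covariate 3 were called lower, NDUFA4, NDUFC1 and NDUFS1, with a median of -0.11, 29 genes below 0 and 1.83% of all probes called lower. Scaling each array to its spike-in controls in place of quantile normalisation left 11 genes called lower, a median of -0.17 and 1.51% of all probes called lower. This scaling also raised the median difference over all probes to 0.074, from -0.02 in the main model. The part that leukocyte RNA or brightness had in the falls was not tested.

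**Figure D2:**
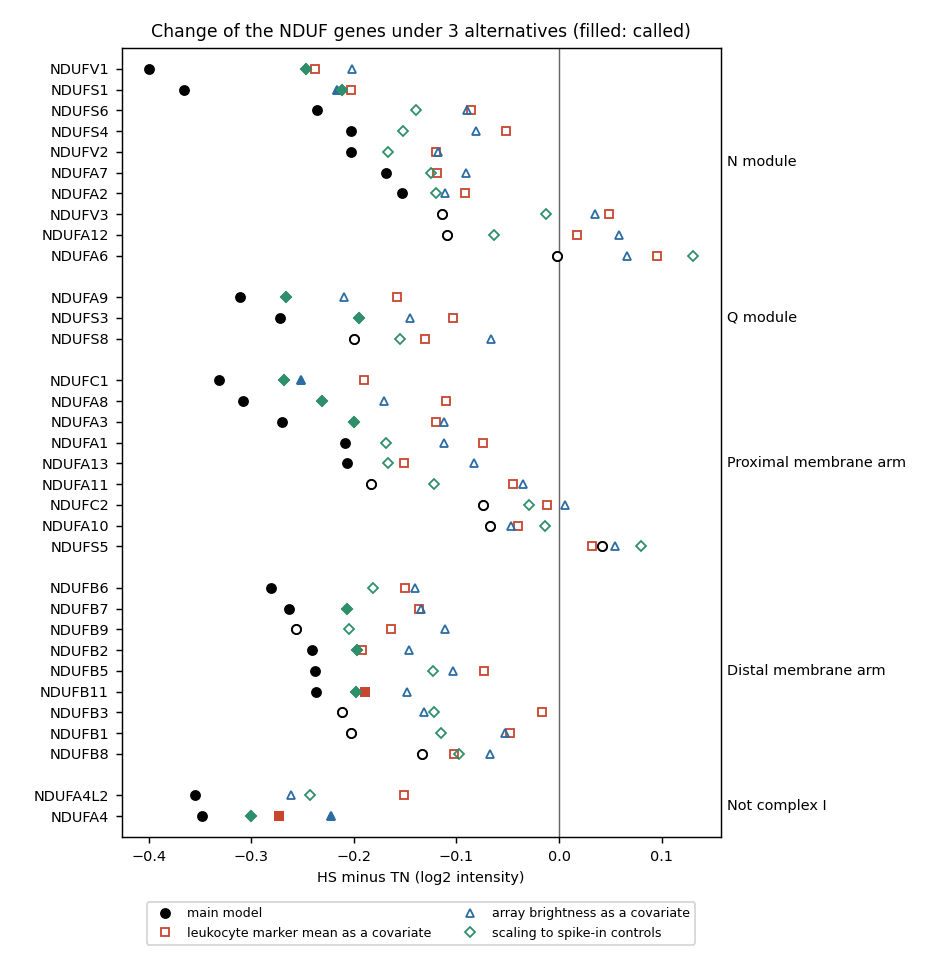
Difference between HS and TN (x axis, log2 intensity) for the NDUF genes in the main model and under 3 alternatives, with filled symbols for genes called at adjusted p under 0.05. The median of the family moves from -0.21 in the main model to -0.17 with spike-in scaling and to -0.11 with either covariate, and NDUFA4 is the gene filled under every setting shown. The median over all probes, not drawn, is -0.02 in the main model and 0.074 with spike-in scaling. It is -0.0029 with the leukocyte covariate and -0.016 with the brightness covariate.

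Single arrays showed how these measures lay beside each other. The HS arrays with the highest leukocyte means, Creole HS replicate 1 (11.34) and Large White HS replicate 5 (11.29), had the lowest NDUF means of all arrays, 13.04 and 12.995. Among TN arrays the highest leukocyte means, in Large White TN replicate 6 (10.96) and F1 TN replicate 2 (10.85), likewise stood beside the lowest NDUF means, 13.36 and 13.26. In brightness, the 75th percentile before normalisation, these HS arrays stood at 9.57 and 9.62 and these TN arrays at 9.40 and 9.10. The order was not strict, as Large White HS replicate 3 had a leukocyte mean of 10.51 beside an NDUF mean of 13.58. All 10 skeletal muscle markers were well above background on every array. Of these, TNNI2 (-0.15) and MYH2 (-0.21) were called lower in HS and DES (0.24) higher, 8 of 10 were below 0 and the median was -0.053.

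**Figure D3:**
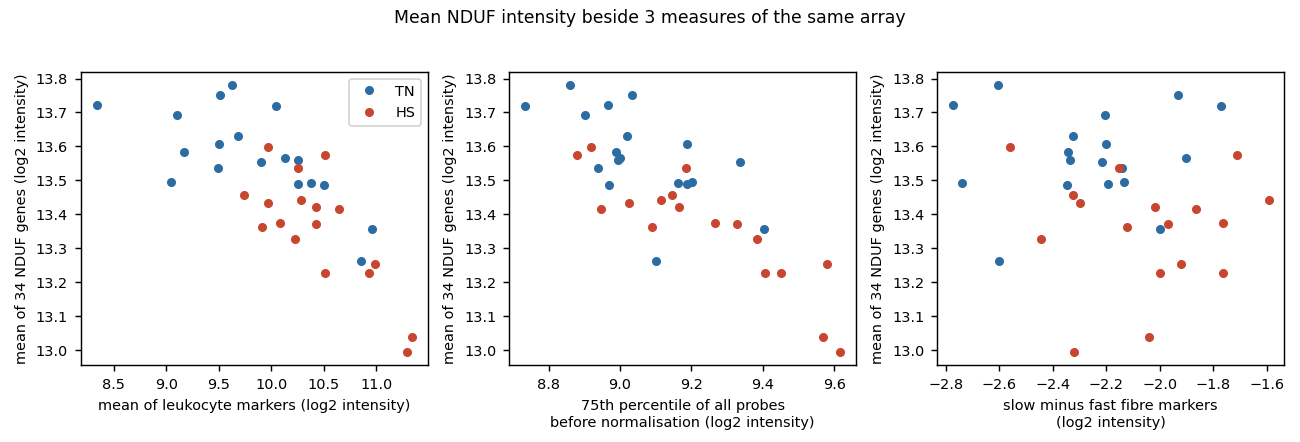
Mean log2 intensity of the 34 NDUF genes on each array (y axis) against the mean of 17 leukocyte markers, the 75th percentile of all probes before normalisation, and the difference between slow and fast fibre markers (x axes, log2 intensity), with TN arrays in blue and HS arrays in red. The arrays at the right end of the leukocyte panel, at 11.29 and 11.34, lie lowest, at 12.995 and 13.04. In the brightness panel the same arrays stand at 9.62 and 9.57.

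The core subunits encoded in the nucleus are described first. NDUFV1, which binds NADH and the flavin that takes its electrons, ran from 9.38 over a median of 9.91 to 10.31 in TN and from 8.79 over 9.48 to 10.09 in HS. It fell by 0.40 (SE 0.098, adjusted p = 0.0060), which means that the intensity fell by 24.2%. This was the largest fall among the brightest probes in the main model. NDUFA4 fell most with spike-in scaling (by 0.30), the leukocyte covariate (by 0.27) or the processed signal (by 0.47). NDUFA4L2 did so with brightness as a covariate (by 0.26) or the median over probes (by 0.46). With 75th percentile scaling the largest fall was 0.45, while NDUFV1 fell by at most 0.41 under the 15 alternatives that kept every array. For NDUFV1, 16 of 17 HS arrays lay below the TN mean of their own genetic group, and 6 below every TN array. NDUFS1, the largest iron-sulfur subunit of the N module, ran from 9.46 over 9.92 to 10.35 in TN and from 9.20 over 9.60 to 9.86 in HS. It fell by 0.37 (SE 0.075, adjusted p = 0.0014), and all 17 HS arrays lay below the TN mean of their genetic group. The 2 groups still overlapped, with 4 HS arrays below the lowest TN array.

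NDUFV2, the iron-sulfur partner of NDUFV1, ran from 14.45 over 14.70 to 14.93 in TN and from 14.24 over 14.52 to 14.73 in HS. Its fall was smaller, by 0.20 (SE 0.048, adjusted p = 0.0046), and was shared by all 17 HS arrays when set against the TN mean of their genetic group. NDUFS3, a core subunit of the Q module, fell by 0.27 (SE 0.072, adjusted p = 0.010). It ran from 13.05 over 13.61 to 13.85 in TN and from 12.80 over 13.33 to 13.57 in HS, so that all 17 HS arrays were below the TN median. NDUFS8, which carries iron-sulfur clusters near the quinone site, differed by -0.20 (SE 0.071) and just missed the threshold (adjusted p = 0.051). It ran from 15.02 over 15.34 to 15.74 in TN and from 14.72 over 15.21 to 15.47 in HS.

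**Figure D4:**
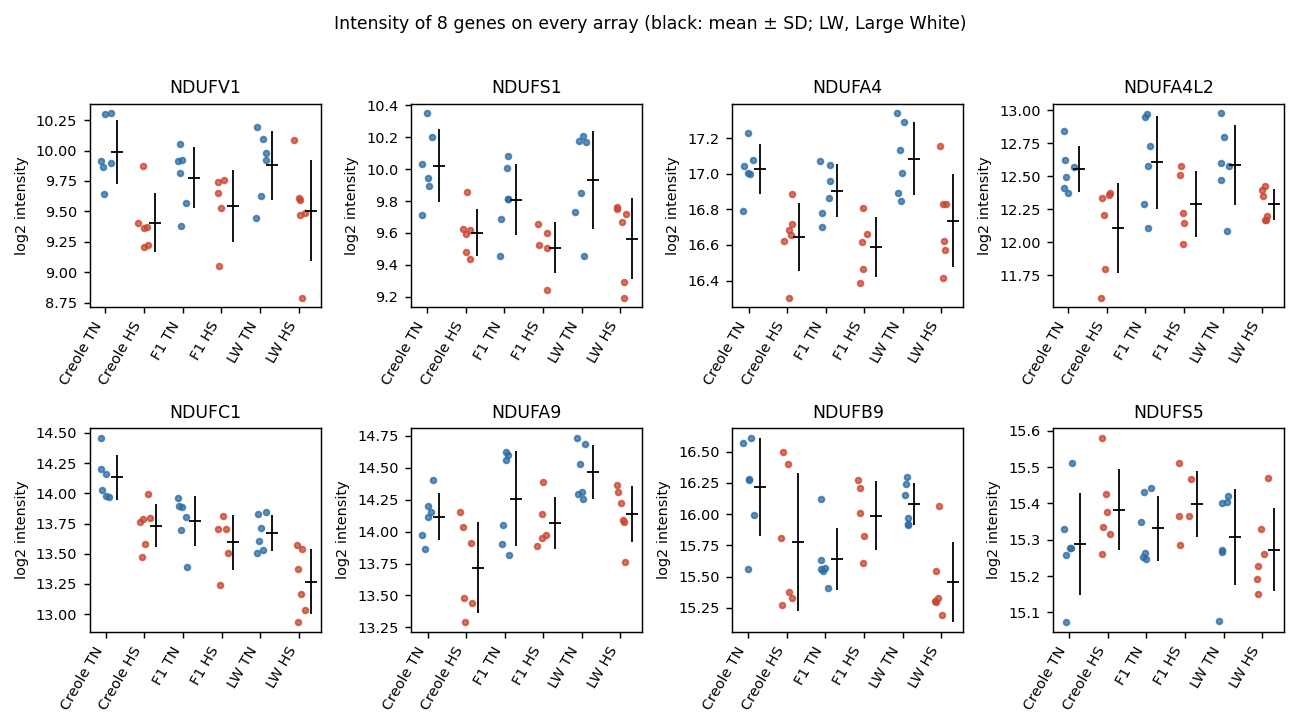
Log2 intensity (y axes) of 8 genes on every array in the 6 groups (x axes), TN in blue and HS in red, with the mean ± SD of each group in black (n = 6, and 5 in F1 HS). NDUFV1, NDUFS1, NDUFA4 and NDUFA4L2 have lower means in HS in each genetic group, NDUFC1 and NDUFA9 also differ between breeds, NDUFB9 is higher in HS in F1 alone, and NDUFS5 shows no fall over all arrays.

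Among the accessory subunits of the N module, 4 of 7 fell. NDUFS6 fell by 0.24 (SE 0.079), NDUFS4 by 0.20 (SE 0.071), NDUFA7 by 0.17 (SE 0.052) and NDUFA2 by 0.15 (SE 0.040). NDUFS4 and NDUFS6 are known from inherited complex I deficiency. NDUFA2, a small subunit with a thioredoxin-like fold, had the lowest spread of these, from 14.25 over 14.44 to 14.62 in TN and from 14.06 over 14.27 to 14.44 in HS, and 8 HS arrays lay below every TN array. NDUFV3 (-0.11), NDUFA12 (-0.11) and NDUFA6 (-0.0022) were not called, with adjusted p of 0.41, 0.49 and 0.99. With core and accessory genes together, 7 of 10 N module genes fell, with a median of -0.19.

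In the Q module NDUFA9, an accessory subunit that binds a nucleotide close to the quinone site, fell by 0.31 (SE 0.089, adjusted p = 0.015). All 17 HS arrays but 2 lay below the TN mean of their genetic group.

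In the proximal membrane arm 5 of 9 genes fell, with a median of -0.21. NDUFC1, a small subunit with 1 membrane helix, ran from 13.39 over 13.86 to 14.46 in TN and from 12.93 over 13.57 to 13.99 in HS. It fell by 0.33 (SE 0.070, adjusted p = 0.0019), in 16 of 17 HS arrays set against the TN mean of their genetic group. NDUFA8, which lies on the side of the intermembrane space, fell by 0.31 (SE 0.083), NDUFA3 by 0.27 (SE 0.075), NDUFA1 by 0.21 (SE 0.071) and NDUFA13, also known as GRIM-19, by 0.21 (SE 0.069). NDUFA11 differed by -0.18 (adjusted p = 0.074) and NDUFC2, which pairs with NDUFC1 in the complex, by -0.074 (adjusted p = 0.50). NDUFA10 differed by -0.067 (adjusted p = 0.48), on a probe with a median intensity of only 73.5. NDUFS5 was the gene with a value above 0, at 0.042 (SE 0.043, 95% confidence interval -0.046 to 0.13, adjusted p = 0.55). It ran from 15.07 over 15.28 to 15.51 in TN and from 15.15 over 15.34 to 15.58 in HS, with 11 of 17 HS arrays above the TN mean of their genetic group.

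The distal membrane arm likewise had 5 of 9 genes called, with a median of -0.24. NDUFB6 fell by 0.28 (SE 0.087), NDUFB7 by 0.26 (SE 0.069), NDUFB2 by 0.24 (SE 0.062), NDUFB5 by 0.24 (SE 0.073) and NDUFB11, encoded on the X chromosome, by 0.24 (SE 0.053). NDUFB2 ran from 15.13 over 15.30 to 15.56 in TN and from 14.59 over 15.12 to 15.41 in HS, with 10 HS arrays below every TN array. The other four genes did not pass. NDUFB3 differed by -0.21 (adjusted p = 0.070), NDUFB1 by -0.20 (adjusted p = 0.055) on a probe with a median intensity of 118.5, and NDUFB8 by -0.13 (adjusted p = 0.055). NDUFB9 differed by -0.26 with the widest error of all NDUF genes (SE 0.13, adjusted p = 0.18).

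NDUFA4 and NDUFA4L2, not counted among the subunits today, fell as well. NDUFA4 ran from 16.70 over 17.00 to 17.34 in TN and from 16.30 over 16.65 to 17.15 in HS. It fell by 0.35 (SE 0.063) with the smallest adjusted p of the family (0.00049), and 11 of 17 HS arrays lay below every TN array. NDUFA4L2 ran from 12.08 over 12.58 to 12.98 in TN and from 11.58 over 12.22 to 12.58 in HS, and fell by 0.35 (SE 0.088, adjusted p = 0.0061). All 17 HS arrays lay below the TN median of 12.58.

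Genes with several probes were measured more than once on the same RNA, so these probes check the measurement and are not further animals. Of the 64 probes kept, 61 were below 0, 42 were called lower and none higher. Several kept probes were present for 16 genes, and of their 30 dimmer probes 20 were called lower. All 7 NDUFA4 probes were called, from -0.41 to -0.34, although most overlap in sequence. The 3 NDUFA4L2 probes were called at -0.46, -0.35 and -0.33.

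In other genes the choice of probe decided the call. NDUFB9 was not called by its brightest probe, but 2 of its 3 dimmer probes were, at -0.36 and -0.31. For NDUFB8 3 of 6 dimmer probes were called, from -0.19 to -0.14, while the dimmest 2 differed by 0.0061 and 0.058 and were not. Their median intensities were only 113.5 and 52, and the dimmest was well above background on 25 of 35 arrays. The dimmer probes of NDUFS1 (-0.13), NDUFB6 (-0.098), NDUFA7 (-0.12) and NDUFA2 (-0.098) were not called. That of NDUFS1 lay near the floor, with a median intensity of 47 and well above background on only 17 of 35 arrays. The NDUFA2 one had a median intensity of 101. The dimmest 2 probes of NDUFB8 and those of NDUFS1 and NDUFA2 are so dim that they say little about the call. This does not hold for NDUFA7 and NDUFB6. Their dimmer probes had median intensities of 26498 and 654 and were well above background on all 35 arrays.

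Other genes of the complex and of the mitochondrion were described by lists. The complex I subunits encoded by mitochondrial DNA were all below 0 (7 of 7, median -0.19), and 2 were called lower, ND4L (-0.31) and ND4 (-0.15). Of 17 assembly factors 6 were measured and 2 were called lower, NDUFAF4 (-0.32) and ACAD9 (-0.24), while NDUFAF3 stood at 0.088. NDUFAB1, the acyl carrier protein that sits in the complex, differed by -0.17 and was not called. Of complex II 4 genes were measured, and SDHA (-0.26) and SDHB (-0.29) were called lower. Among 8 genes used as signs of mitochondrial content 5 were called lower, including citrate synthase CS (-0.23), VDAC1 (-0.19) and the cristae protein IMMT (-0.31). Of 7 measured regulators of mitochondrial biogenesis 3 were called lower: ESRRA (-0.25), TFAM (-0.21) and YY1 (-0.19), whereas PPARGC1A stood at -0.29 with an adjusted p of 0.14.

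Fibre type markers, connective tissue and blood were set beside these values. Of 11 fast fibre markers measured 4 were called lower, among them ATP2A1 (-0.46), and of 9 slow fibre markers TPM3 (-0.29) was called lower and CASQ2 (0.86) higher. Both lists lay mostly below 0, with 10 of 11 fast markers (median -0.15) and 8 of 9 slow markers (median -0.14). Single genes weigh on the list means: CASQ2 was the slow marker above 0, and the fast marker PVALB stood at -0.86 and was not called. The mean of slow minus fast markers was -2.26 ± 0.28 in TN (SD, n = 18) and -2.05 ± 0.27 in HS (SD, n = 17), and with it as a covariate 17 NDUF genes and 6.08% of all probes were called lower. Of 15 connective tissue markers 7 were called higher, with FN1 at 0.84 and BGN at 0.75. Their summed level, as log2, ran from 17.4 to 18.7 in TN and from 18.3 to 19.1 in HS. The endothelial marker VWF (-0.36), 1 of 7 measured, and the blood cell genes HBB (-1.21) and AHSP (-0.44), 2 of 4, were called lower. The other blood cell genes went both ways, SLC4A1 at 0.37 and ALAS2 at -0.23, and neither was called. No adipocyte marker of 6 was called. The part of these markers in the NDUF values was not tested.

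The arrays lay on 5 slides, each with pigs of both temperatures, and most NDUF genes were lower in HS within each. On slides 1 to 5, 32, 25, 33, 32 and 29 of the 34 genes were lower, with medians of -0.30, -0.04, -0.35, -0.14 and -0.31. These values within slides were not adjusted for breed. Slide 5 held 3 arrays, Large White TN replicates 5 and 6 and Creole HS replicate 6, so temperature and breed cannot be told apart there. With slide as a block 26 genes were called lower, as were 11% of all probes, and the median was -0.22.

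Each genetic group on its own was then tested. No NDUF gene was called within any of them, where 1.91% of all probes were called in Creole, 0.00482% in F1 and 0.00482% in Large White. Values below 0 were seen in 32 of 34 genes in Creole (median -0.26), 28 in F1 (median -0.11) and 34 in Large White (median -0.29), and 27 genes were below 0 in all 3. At an unadjusted p under 0.05 there were 19 genes in Creole, 2 in F1 (NDUFA4 and NDUFS1) and 23 in Large White. The smallest adjusted p was 0.059 for NDUFV1 in Creole, where its difference was -0.58 (SE 0.17). Calls in these small groups hung on single pigs: 8 genes were called in Creole without Creole HS replicate 2, 5 in Creole without Large White HS replicate 5, and 5 in Large White without Large White TN replicate 6. In the same fits 4.01%, 3.32% and 2.56% of all probes were called.

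Whether the heat response differed between the genetic groups was tested by the interaction of breed and temperature. No NDUF gene was called, as among all probes (0%), and the smallest adjusted p of the family was 0.96. At an unadjusted p under 0.05 limma gave 2 genes, NDUFB9 (unadjusted p = 0.0041) and NDUFB11 (unadjusted p = 0.032), both with an adjusted p of 0.96. In 30 of 34 genes F1 had the highest of the 3 differences, and since all 34 were read from the same arrays, this count does not weigh as 34 observations. The NDUF mean per array was 13.50 ± 0.13 in F1 TN (SD, n = 6) and 13.41 ± 0.11 in F1 HS (SD, n = 5). In Creole it was 13.61 ± 0.12 in TN and 13.34 ± 0.19 in HS, and in Large White 13.61 ± 0.15 and 13.33 ± 0.20 (SD, n = 6 each).

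**Figure D5:**
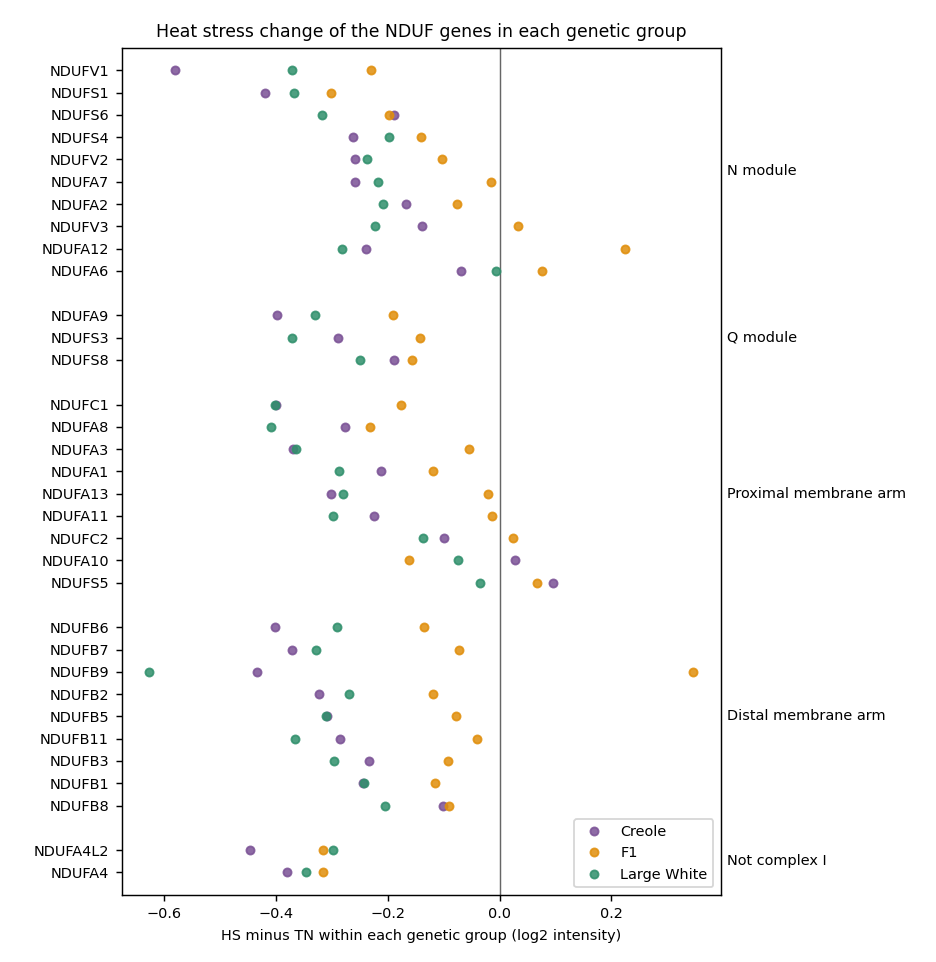
Difference between HS and TN within each genetic group (x axis, log2 intensity; 1 point per gene and group) for the NDUF genes by module. Large White points all lie left of 0, F1 points lie furthest right in most genes, and NDUFB9 spreads widest, from -0.63 in Large White to 0.35 in F1.

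NDUFB9, an accessory subunit at the tip of the membrane arm, had the widest spread between genetic groups. In Creole it ran from 15.56 over a median of 16.28 to 16.61 in TN and from 15.27 over 15.59 to 16.50 in HS. In Large White it ran from 15.91 over 16.06 to 16.30 in TN and from 15.19 over 15.32 to 16.06 in HS. In F1 the order was turned, with TN from 15.41 over 15.56 to 16.12 and HS at 15.61, 15.83, 16.01, 16.21 and 16.27. The differences were -0.43 (SE 0.20) in Creole, 0.35 (SE 0.20) in F1 and -0.63 (SE 0.20) in Large White. The 3 dimmer probes gave -0.28, -0.35 and -0.27 in Creole, -0.14, 0.14 and 0.016 in F1, and -0.64, -0.62 and -0.66 in Large White. The value in Large White was thus alike over all 4 probes and the sign in F1 was not.

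Between the parental breeds the family as a whole did not lie to one side. Creole minus Large White had a median of 0.0032 over the 34 genes, 16 being below 0, and 2 were called, where 3.64% of all probes were called. NDUFC1 was higher in Creole by 0.46 (SE 0.084, adjusted p = 0.00094). At TN it ran from 13.97 over 14.09 to 14.46 in Creole and from 13.51 over 13.66 to 13.84 in Large White, without overlap. In HS it ran from 13.48 over 13.77 to 13.99 in Creole and from 12.93 over 13.27 to 13.57 in Large White, with a small overlap. F1 lay between, from 13.39 over 13.85 to 13.96 in TN and at 13.24, 13.51, 13.71, 13.71 and 13.82 in HS. Its dimmer probe gave 0.44 (adjusted p = 0.0062), and the call held without any 1 array.

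NDUFA9 was lower in Creole than in Large White by 0.38 (SE 0.11, adjusted p = 0.034). At TN it ran from 13.87 over 14.13 to 14.40 in Creole and from 14.25 over 14.42 to 14.74 in Large White. In HS it ran from 13.29 over 13.70 to 14.15 in Creole and from 13.76 over 14.16 to 14.36 in Large White, so the breeds overlapped at both temperatures. The call was lost without any 1 of 10 arrays, with a difference from -0.42 to -0.34 over all 35 arrays left out in turn.

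The NDUFB11 probes shown above, which differ by T20C and C55A, gave different breed values. The brightest one differed by -0.05 between Creole and Large White (adjusted p = 0.80) and the dimmer one by -0.34 (adjusted p = 0.019). At TN the brightest probe stood at 15.66 ± 0.11 in Creole and 15.75 ± 0.15 in Large White, and the dimmer one at 15.46 ± 0.14 and 15.87 ± 0.29 (SD, n = 6 each). Both were called lower in HS, by 0.24 and 0.28.

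F1 was also compared with the midpoint of its parental breeds. No NDUF gene was called (smallest adjusted p = 0.72, none at an unadjusted p under 0.05), where 0.246% of all probes were called. The differences ran from -0.13 to 0.17 with a median of -0.035, and for NDUFC1 the difference was -0.025 (95% confidence interval -0.18 to 0.13).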

How the data were processed

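Total RNA of 35 muscle samples was labelled with Cy3 by the authors, hybridised to 1-colour Agilent porcine arrays and quantified with Agilent Feature Extraction 10.10.1.1 (submitters' processing notes). The scanner output deposited for each array gives spot intensity, not log-transformed, with quality flags. The deposited value table holds log2 values of 40649 probes, quantile-normalised and filtered by the authors, and served as an alternative (lowest Pearson r with the recomputed values of the same array 1.00, across probes).

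Here the median pixel intensity was quantile-normalised without background subtraction, log2 was taken and 105 outlier-flagged spots were set to missing. Saturated spots numbered 0. A probe entered the tests when some group had it well above background in 75% or more of its arrays, which held for 41517 of 60305. The share of probes well above background ran from 58.4% to 75.9% per array, and with arrays their number limits the precision. Groups came from the labels. The replicate number names an array and pairs nothing.

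limma 3.58.1 in R 4.3.3 fitted breed plus temperature for temperature, breed and the F1 midpoint. A model with 1 mean per group served heat within genetic groups and the interaction. The methods' random terms (pen, slaughter day, father, mother) are not in the labels and so not in these models. Pigs sharing a pen or a parent were treated as independent, which can make p-values too small and calls too many. Calls were made at an adjusted p under 0.05. In data simulated for HS minus TN on 40597 probes, 98% of 200 probes changed by 1 log2 unit, more than any change of the NDUF genes, were recovered with 14 false calls, and for Creole minus Large White 93% with 12. Smaller changes were not simulated.

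The NDUF genes and all gene lists were chosen with earlier results of these data known. Matching was blind to case: 28 genes matched in capitals, 34 in any case. Every member entered the counts and medians. Values of 1 gene and some probe sequences are not reported here; core subunits, the 5 called genes with the largest heat change, genes called between breeds, NDUFA4 and NDUFA4L2 are given by group or temperature in full. NDUFB9, NDUFB11, NDUFS5, NDUFA2 and NDUFB2 were given more room after their values were seen. Alternatives were other scalings, background corrections, filters, probe rules, slide and array weights, 3 covariates, and leaving out each array. No genome coordinates were used.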

Additional observations from a re-analysis of the deposited data

Results flagged for a closer look

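In each of the 6 groups, every NDUF gene and the mean of all 34 were checked for a highest or lowest array set apart from the rest by more than Dixon's 95% limit on the gap divided by the range. Of 210 such checks 7 stood out, where 10.5 come about by chance. F1 TN replicate 2 was the lowest of its group for 4 genes: NDUFB5 (gap over range 0.718), NDUFS3 (0.647), NDUFS4 (0.726) and NDUFV2 (0.693). Its NDUFV2 value was 14.45 against 14.62 to 14.70 in the other F1 TN arrays. Without this array 27 NDUF genes were called lower in HS, beside 22 in the main model. The share of all probes called without it is not given here.

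F1 TN replicate 6 was the highest of its group for NDUFB9 (gap over range 0.687), at 16.12 against 15.41 to 15.63. Creole HS replicate 2 was the highest for NDUFV1 (0.707), at 9.87 against 9.21 to 9.40. Creole HS replicate 1, the array with the highest leukocyte mean, was the lowest for NDUFV3 (0.701), at 12.24 against 12.90 to 13.19. The causes were not tested.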

How the results depend on the processing

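No paired analysis was possible because the replicate numbers follow the order of deposition and pair no animals. The count of NDUF genes called lower in HS, 22 in the main model, was 17 to 27 under the alternatives except spike-in scaling (11), the brightness covariate (3) and the leukocyte covariate (2). NDUFA4 alone was called under all 15 alternatives, and no called gene changed sign. NDUFA4 is not counted as a complex I subunit today, so no gene counted as one was called under all of them. Leaving out each array in turn gave 18 to 27 called genes and a median of -0.24 to -0.19. For these fits the shares of all probes called are not given here. Values of genes not called turned sign for NDUFS5 with 75th percentile scaling (-0.071) and the processed signal (-0.085). NDUFA6 turned with median scaling (0.054), spike-in scaling (0.13), brightness (0.066), leukocytes (0.095) and no breed term (7.8e-06), and on leaving out any 1 of 16 arrays (range over all 35 arrays left out in turn -0.031 to 0.022). NDUFA12 turned with brightness (0.058) and leukocytes (0.018), NDUFV3 with brightness (0.035) and leukocytes (0.049), and NDUFC2 with brightness (0.0059).

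Within Creole, 1 gene was called with 75th percentile scaling, the processed signal or slide as a block, where 2.23%, 1.46% and 1.06% of all probes were called. With array weights 3 genes and 2.52% of all probes were called, and with the median over probes 2 genes and 1.91%. Within Large White, 2 were called with slide as a block or array weights, where 0.850% and 2.14% of all probes were called. Leaving out arrays gave 0 to 8 in Creole and 0 to 5 in Large White. No gene was called in F1, for the interaction or for the F1 midpoint under any alternative, with 0 to 0 on leaving out arrays. With array weights 1.68% of all probes were called in F1 and 0.686% for the F1 midpoint. Creole minus Large White gave 1 call with 75th percentile scaling or the processed signal, where 3.38% and 3.78% of all probes were called. It gave 3 with median scaling (3.71% of all probes) or spike-in scaling (2.22%). With the brightness (4.33%) or the leukocyte covariate (5.27%) it gave 4, and on leaving out arrays 1 to 3. NDUFA9 was the call lost, without Creole TN replicate 5, Creole HS replicates 1, 5 and 6, Large White TN replicates 1, 4 and 5, and Large White HS replicates 3, 4 and 6. The causes were not tested. The dim probes of NDUFA10 and NDUFB1 limit what can be seen for these genes.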
